A study of Rattus norvegicus with 2 samples.

Results

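Chromosome 19 was followed probe by probe in the 8-oxoG profile of the normal rat kidney. Its members were the 5673 array probes placed on chromosome 19 of the rat assembly rn4, out of 235872 probes kept on the whole array and 231247 probes placed on chromosomes 1 to 20 and X. They were chosen by position alone, and probes on sequence assigned to the chromosome without a position were left out. Genomic DNA came from whole kidneys of 2 untreated male Wistar rats of 5 weeks of age (strain spelled Wister in the labels), with 1 array per rat, and the arrays form 1 group. DNA pulled down by the 8-oxoG antibody N45.1 carried Cy5 and input DNA from the same kidneys, taken without IP, carried Cy3. There was no control group, no second condition and no dye swap, so a difference between dyes cannot be told apart from a difference between IP and input. A whole kidney mixes many cell types, so a level is an average over all of them.

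8-Oxoguanine (8-oxoG) arises when reactive oxygen species oxidise guanine, the base most easily oxidised in DNA. It can pair with adenine during replication, which turns a G:C pair into a T:A pair unless the base is removed. The glycosylase OGG1 excises 8-oxoG opposite cytosine, MUTYH removes the adenine placed opposite 8-oxoG, and MTH1 clears oxidised guanine nucleotides before they enter DNA. Kidney tubule cells consume much oxygen for transport, which makes the kidney a common tissue for studies of oxidative DNA damage. Chromosome 19 carries, by the RefSeq annotation of the later assembly GRCr8, genes with roles in this setting. Among them are Hmox1, the heme oxygenase induced by oxidative stress, Nqo1, a quinone reductase, Cyba, a subunit of NADPH oxidases, and the peroxiredoxin Prdx2. Genes of kidney physiology lie there as well, such as Slc12a3, the thiazide-sensitive sodium chloride cotransporter of the distal tubule, Hsd11b2, which inactivates glucocorticoids, and Nr3c2, the mineralocorticoid receptor. Of 42 gene symbols looked up, 37 are on chromosome 19 of GRCr8. None of them was given a level, because the coordinates of the arrays belong to another assembly.

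The level of a probe is the log2 of IP over input intensity after subtraction of the median of its array, averaged over both rats unless a rat is named. A value of 0 therefore stands for the middle of the array and not for absence of 8-oxoG, and stretches above and below it are called 8-oxoG-rich and 8-oxoG-depleted. Probes started 10438 bases apart on average along chromosome 19, against 11754 bases over all placed probes. They covered 59.2 Mb, from position 4795 to position 59210011. Proximal and distal are used here for lower and higher rn4 coordinates only, and not for the distance from the centromere. There were 9 intervals above 100 kb, the longest of 637 kb between 23448533 and 24085207. All 4 signals of a probe, from IP and input of both rats, were well above background for 79.0% of the probes of chromosome 19 and 78.2% of all placed probes. Arrays give no read depth, and with 2 of them their number limits the precision.

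Chromosome 19 was low in 8-oxoG as a whole. Its mean over probes was -0.13 in rat 1 and -0.14 in rat 2, and both rats lay below the median of their array by nearly the same amount. The mean over all placed probes was itself -0.01 in rat 1 and -0.10 in rat 2. Much of the low mean in rat 2 was thus shared with the whole array. The mean of both rats was -0.14 ± 0.0066 (SD, n = 2), the third lowest of the 21 chromosomes after chromosomes 12 (-0.20) and 10 (-0.20). In limma across the 21 chromosomes, chromosome 19 was below 0 with an SE of 0.05 and an adjusted p of 0.0445. Every chromosome got this SE, which was pooled over chromosomes that share the same arrays and are not independent. The same test called 14.3% of the chromosomes below 0, namely 10, 12 and 19, and 0% above, and at an unadjusted p under 0.05 it gave 0 above. The median probe of chromosome 19 was at -0.10 in rat 1 and -0.03 in rat 2, and in rat 2 the mean lay well below the median. The call was lost with a normexp background correction (mean -0.071, adjusted p 0.155), with intensities before dye normalization (-0.12, adjusted p 0.0754) and with centring on autosomal probes (-0.13, adjusted p 0.195).

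Set against the probes of the other 20 chromosomes, chromosome 19 was lower in both rats, with a difference of -0.12 in rat 1 and -0.05 in rat 2. The mean difference was -0.08 (SE 0.03, adjusted p 0.0252 in limma over 21 such differences, of which 14.3% were called below 0 and 9.52% above). This difference was no longer called with normexp (-0.014, adjusted p 0.518), with probes well above background alone (-0.072, adjusted p 0.169) or with the trend on input brightness removed (-0.066, adjusted p 0.136). Among the 210 pairs of chromosomes limma called 0%, and at an unadjusted p under 0.05 it gave 69, of which 9 were among the 20 pairs with chromosome 19. Chromosome 19 was above chromosome 10 by 0.06 in rat 1 and 0.06 in rat 2 (adjusted p 0.132). It was above chromosome 12 by 0.10 in rat 1 and 0.03 in rat 2 (adjusted p 0.196). Against chromosome 20 the differences were -0.07 and -0.08 (adjusted p 0.127). The order of chromosome 19 among these neighbours thus did not pass the test, although both rats gave each of these differences the same sign. Against chromosomes 17 and X the sign differed between the rats.

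**Figure D1:**
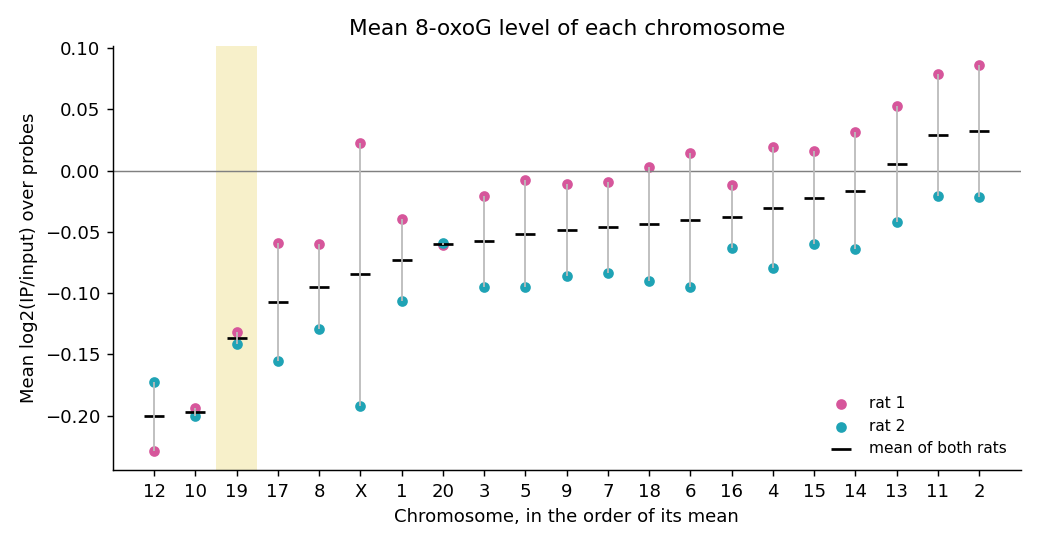
Mean log2(IP/input) over the probes of each of the 21 chromosomes (vertical axis), ordered along the horizontal axis by the mean of both rats. Points are the rats, grey lines join them and black bars are their means, and chromosome 19 (shaded) has rat 1 at -0.13 and rat 2 at -0.14, above chromosomes 12 and 10 only.

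Along the chromosome the level was not uniform. After averaging over 500 kb in both directions, chromosome 19 held 10 regions of 1 Mb or longer on one side of 0, of which 3 were rich and 7 depleted. Depleted stretches of any length summed to 46.8 Mb, or 79.1% of the chromosome, and rich stretches to 12 Mb, or 20.3%. Chromosomes 12 (89.2%) and 10 (88.1%) had a larger depleted share, and chromosome 20 had 63.3%. In the smoothed curve of rat 1 alone the depleted share of chromosome 19 was 73.9%, and in that of rat 2 it was 78.8%. The regions below were read from these values, so their levels are given as a description.

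The chromosome began with a depleted region of 2.06 Mb (chr19:4795-2064540, 239 probes), at -0.12 in rat 1 and -0.37 in rat 2. The longest rich region followed over 6.97 Mb (chr19:2071740-9043893, 555 probes), at 0.43 in rat 1 and 0.33 in rat 2. It held the highest point of the smoothed curve, 0.58 at 6.91 Mb, where rat 1 was at 0.67 and rat 2 at 0.49. All 7 fragments of 1 Mb from 2 to 9 Mb were above 0 in both rats, between 0.30 and 0.56 in rat 1 and between 0.10 and 0.42 in rat 2. The rats differed more at the start of the chromosome than in this block. With normexp the rich region was at 0.022 in the mean of both rats, against 0.38 with the level as defined above.

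A mostly depleted stretch came next. It consisted of regions of 3.35 Mb (chr19:9068080-12419681, 428 probes) at -0.28 in rat 1 and -0.25 in rat 2, of 9.77 Mb (chr19:13199643-22966307, 804 probes) at -0.27 and -0.26, of 1.32 Mb (chr19:23004372-24322190, 44 probes) at 0.09 and -0.13, and of 3.02 Mb (chr19:24408325-27430633, 397 probes) at -0.18 and -0.16. The rats had nearly the same level in the 3 longer ones and opposite signs in the shortest, which contains the interval of 637 kb without probes. The lowest point of the smoothed curve, -0.62, was at 13.7 Mb, with rat 1 at -0.53 and rat 2 at -0.72. Of the 18 fragments from 9 to 27 Mb, 16 were below 0 in both rats.

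Between 27 and 35 Mb the curve changed sign several times. A rich region of 2.19 Mb (chr19:27437612-29623482, 211 probes) was at 0.23 in rat 1 and 0.01 in rat 2. A depleted region of 3.29 Mb (chr19:29641727-32934425, 323 probes) was at -0.19 and -0.15. A rich region of 1.64 Mb (chr19:32955967-34600110, 84 probes) was at 0.41 and 0.32. The first of these was uneven between the rats. Rat 1 was higher at 27 to 28 Mb (0.20, rat 2 -0.15) and at 28 to 29 Mb (0.36, rat 2 0.10). Rat 2 was higher at 29 to 30 Mb (0.25, rat 1 0.04). The depleted region and the last rich one had close levels in both rats. With normexp the first region was at -0.046 and the last at 0.0056 in the mean of both rats, against 0.12 and 0.36 with the level as defined above.

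In the smoothed mean of both rats, a single long depleted region of 23.7 Mb (chr19:34626480-58354093) came next and ended before the last probes of the chromosome. It held 2454 probes and covered 40.1% of the length of chromosome 19 and 43.3% of its probes, and it was the third longest depleted region of the genome in this profile. Its mean level was -0.24 in rat 1 and -0.20 in rat 2, with a mean of -0.22 ± 0.03 (SD, n = 2) and a median of -0.17. With normexp the same probes were at -0.090. The other 3219 probes of chromosome 19 were at -0.05 in rat 1 and -0.10 in rat 2, beside -0.01 and -0.09 for the 225574 probes of the other chromosomes. Outside the long region, chromosome 19 lay slightly below the other chromosomes in rat 1 and level with them in rat 2. Taking out a region drawn where the level is low by itself raises the rest, and the other chromosomes kept their depleted regions. The 1 Mb fragments from 9 to 27 Mb, outside the long region, had a mean of -0.23, the same as the whole fragments within it. Beyond the long region, 96 probes formed a last rich stretch of 0.85 Mb (chr19:58358716-59210011) at 0.15 and 0.07.

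**Figure D2:**
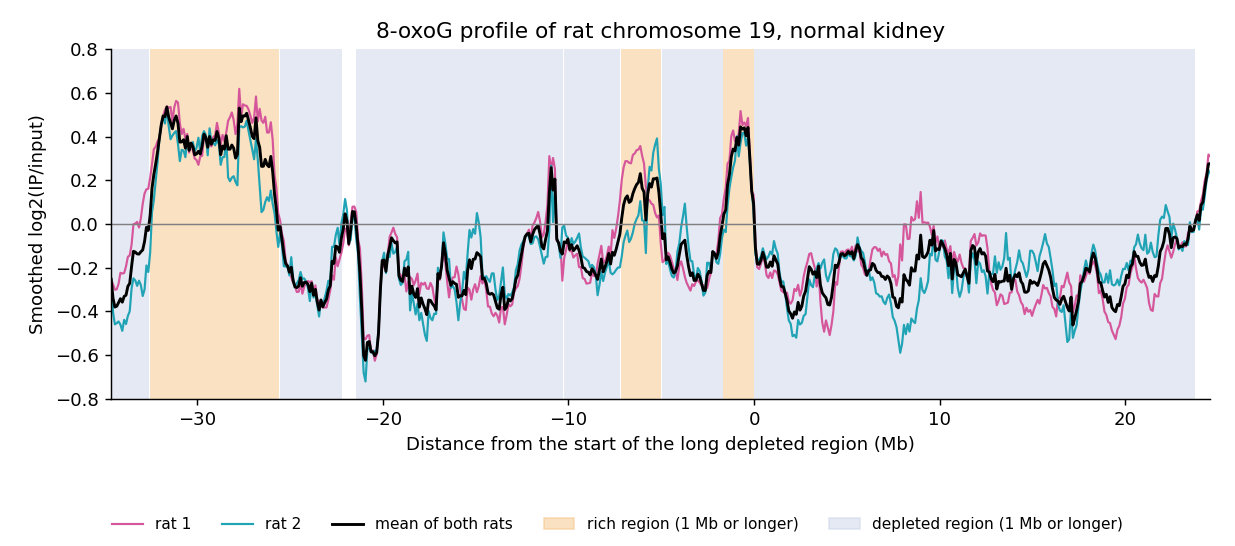
Smoothed log2(IP/input) along chromosome 19 (vertical axis) against distance from the start of the long depleted region in Mb (horizontal axis), for rat 1, rat 2 and their mean. Shading marks rich and depleted regions of 1 Mb or longer, and the curve of the mean stays below 0 over 23.7 Mb to the right of the start, while those of single rats reach 0.15 in rat 1 and 0.086 in rat 2 there.

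The extent of the long region differed between the rats. In rat 2 alone it ran for 21.8 Mb (chr19:34626480-56443519). In rat 1 alone it was broken into regions of 8.11 Mb (chr19:34644868-42757141) and 14.0 Mb (chr19:44377093-58364635), with a stretch between them in which the curve rose to 0 or above. The fragment of 43 to 44 Mb lies in that break, with 45 probes at 0.03 in rat 1 and -0.35 in rat 2. The proximal boundary was nearly the same in both rats, at 34644868 in rat 1 and 34626480 in rat 2. With the Agilent log ratio, and with the values of the authors without centring, the longest depleted run of chromosome 19 began at 44359175 and was 12.4 Mb long. It was 10.46 Mb with probes well above background alone and 9.98 Mb with smoothing over 250 kb.

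Boundaries taken from one rat can be read on the other, which did not take part in placing them. The 8.11 Mb of rat 1 were at -0.26 in rat 2 and its 14.0 Mb at -0.17, and the 21.8 Mb of rat 2 were at -0.26 in rat 1. Of the 11 regions of 1 Mb or longer found on rat 1, 10 had the same sign on rat 2, including all 8 depleted ones, whose levels on rat 2 ran from -0.40 to -0.15. The exception was the rich region chr19:27243809-29425657, at 0.25 on rat 1 and -0.01 on rat 2. All 9 regions found on rat 2 had the same sign on rat 1, with depleted ones from -0.29 to -0.08 and both rich ones at 0.43 and 0.44. Depleted regions of 1 Mb or longer found on a single rat therefore kept their sign on the other in every case, and rich ones in all but 1. This does not hold for the depleted region chr19:23004372-24322190, drawn on the mean of both rats, at 0.09 in rat 1 and -0.13 in rat 2. Beside these counts, 91.7% of the 1 Mb fragments of chromosome 19 and 81.7% of those of all chromosomes had the same sign in both rats. Agreement in sign was thus common along the whole genome.

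The proximal boundary of the long region was steep and the distal boundary was not. In the 500 kb before it the level was 0.49 in rat 1 and 0.28 in rat 2, and in the 500 kb after it -0.13 and -0.26. These are steps of -0.62 in rat 1 and -0.54 in rat 2, in mean the largest of the boundaries of the regions of 1 Mb or longer on chromosome 19. At the distal boundary the level went from 0.01 and 0.08 to -0.01 and -0.08, with steps of -0.03 and -0.16. The fragment that holds the proximal boundary, 34 to 35 Mb, was at 0.15 in both rats (adjusted p 0.228 in limma over all fragments), and that with the distal boundary, 58 to 59 Mb, at 0.06 in rat 1 and 0.03 in rat 2 (adjusted p 0.758).

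The 23 whole fragments of 1 Mb within the long region had means from -0.40 to -0.11, with an SD over fragments of 0.09, and the 34 whole fragments before it had an SD of 0.28. The region was drawn where the smoothed mean of both rats is below 0, which by itself keeps the mean of every whole fragment inside below 0 and narrows their spread. Of the 23 fragments, 21 were below 0 in each rat. Pearson's r between the rats was -0.14 over these 23 fragments and 0.86 over the 34 before the region, which hold both rich and depleted fragments. Over the 18 fragments from 9 to 27 Mb, with an SD over fragments of 0.12, r was 0.56. Neighbouring fragments of a chromosome share their arrays and are not independent, so these coefficients only describe the profile. Why r was low inside the long region was not tested. At a finer scale of 200 kb, 77 of 115 fragments inside (67.0%) were below 0 in both rats and 7 (6.09%) above, against 75 (43.9%) and 53 (31.0%) of 171 before it. Over all chromosomes these shares were 39.4% below and 32.6% above.

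The long region, drawn where the level is low, differed from the whole array more in its high probes than in its low ones. Only 6.23% of its probes had a level above 1, against 11.4% of all placed probes, and 15% were below -1, against 13.0%. Probes above 0 in both rats made up 22.7% of the region, against 31.5% of all placed probes, and probes below 0 in both made up 36.7%, against 31.6%. In rat 1 the upper quartile of its probes was 0.32, against 0.58 over all placed probes, and the lower quartile was -0.76, against -0.59. In rat 2 the upper quartile was 0.56 against 0.67 and the lower quartile -0.82 against -0.75. The quartiles were shifted downwards in both rats, and the upper one by more. These traits were not particular to the long region. Over all depleted regions of 1 Mb or longer on chromosome 19, the long one included, 6.40% of probes were above 1 and 15.9% below -1. There, 23.9% were above 0 in both rats and 37.5% below 0 in both.

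The 60 fragments of 1 Mb of chromosome 19 were tested against 0 together with all 2731 fragments of the genome. Limma gave each of them the same SE of 0.105, so that a call depends on the mean of both rats and not on how far they were apart. The fragment of 42 to 43 Mb, at -0.09 in rat 1 and -0.59 in rat 2, was called below 0 (adjusted p 0.00562). On chromosome 19, 21 fragments (35%) passed below 0, where 20.5% of all fragments did, and 9 (15%) passed above 0, where 20.9% of all fragments did. Without any test, 42 fragments (70%) were below 0 in both rats, against 48.9% of all fragments, and 13 (21.7%) were above 0 in both, against 32.8%. Opposite signs were found for 5 fragments (8.33%), against 18.3% of all. Chromosome 19 thus held a larger share of depleted fragments than the genome, and smaller shares of rich fragments and of fragments with opposite signs. Opposite signs arise most easily near 0, so their share does not measure how far the rats were apart. The difference between the rats had an SD of 0.17 over the fragments of chromosome 19 and 0.18 over all fragments. Of the 21 depleted calls, 10 lay among the 23 fragments of the long region, where the way the region was drawn allows no rich call, and 9 lay between 9 and 27 Mb.

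The highest fragment of those with 50 probes or more was that of 3 to 4 Mb (107 probes), at 0.56 in rat 1 and 0.42 in rat 2, with a mean of 0.49 ± 0.10 (adjusted p 6.04e-05 in limma). The fragment of 5 to 6 Mb (89 probes) followed with 0.40 and 0.37 (adjusted p 0.00175), and that of 33 to 34 Mb (51 probes) with 0.43 and 0.26 (adjusted p 0.00554). Both rats put all 3 above their median, and the first 2 lie in the rich block near the start of the chromosome. With normexp the 3 levels were 0.070, -0.0028 and 0.023, and none was called. The lowest was that of 36 to 37 Mb (130 probes) inside the long region, at -0.36 in rat 1 and -0.44 in rat 2, with a mean of -0.40 ± 0.06 (adjusted p 0.00120). Next came 13 to 14 Mb (61 probes), at -0.29 and -0.51 (adjusted p 0.00131), and 17 to 18 Mb (63 probes), at -0.37 and -0.41 (adjusted p 0.00136). The 3 lowest differed by less than the spread between the rats, so their order carries no weight. None of the 60 fragments had fewer than 20 probes. The last one, 59 to 60 Mb, had 21 probes and was at 0.44 in rat 1 and 0.54 in rat 2.

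**Figure D3:**
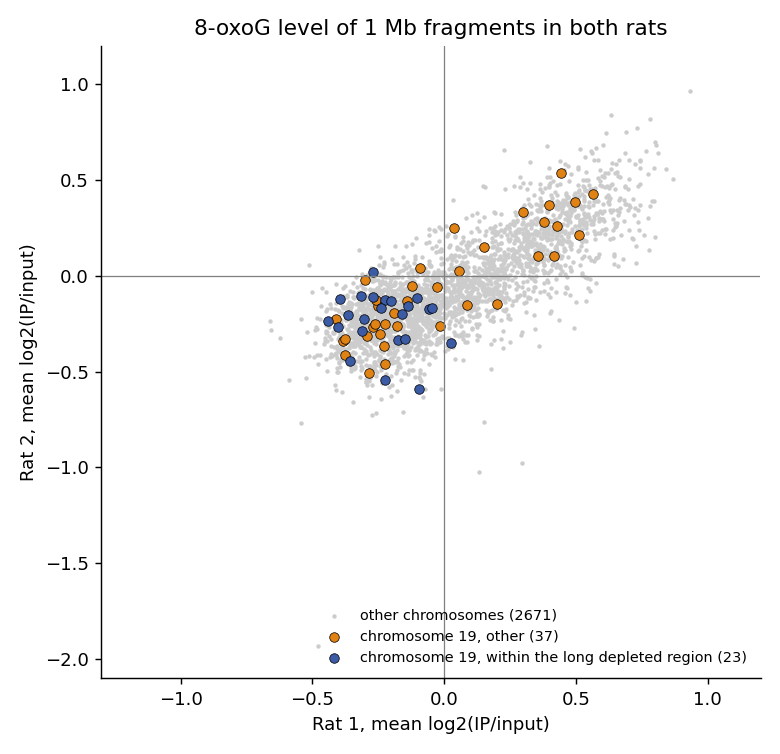
Mean log2(IP/input) of every 1 Mb fragment in rat 1 (horizontal axis) and rat 2 (vertical axis). Fragments of chromosome 19 are coloured by whether they lie within the long depleted region, whose 23 fragments gather in 1 cluster below 0, with 21 of them below 0 in both rats.

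The fragments with opposite signs had means from -0.16 to 0.03, and opposite signs by themselves draw a mean towards 0. The fragment of 27 to 28 Mb was at 0.20 in rat 1 and -0.15 in rat 2, that of 23 to 24 Mb at 0.09 and -0.15, and that of 12 to 13 Mb at -0.09 and 0.04. Inside the long region, 43 to 44 Mb was at 0.03 and -0.35 and 56 to 57 Mb at -0.27 and 0.02. None of the 5 passed the test, with adjusted p from 0.196 to 0.862 in limma over all fragments. As a call depends on the mean of both rats alone, this outcome carries little weight.

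At 200 kb the extremes were sharper than at 1 Mb. Limma over the 13491 fragments of this size called 11 of the 293 on chromosome 19 above 0 and 14 below, beside 5.57% and 2.56% of all fragments. The fragment chr19:33800001-34000000, just before the long region, was at 0.82 in rat 1 and 0.71 in rat 2 with 13 probes (adjusted p 0.0241). The lowest was chr19:30000001-30200000, at -0.89 and -1.03 with 11 probes (adjusted p 0.0170), followed by chr19:14000001-14200000, at -0.75 and -1.03 with 16 probes (adjusted p 0.0194). These 3 were chosen after their values were seen. Both rats lay far from 0 on the same side in each of them.

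A split at the middle between the first and last probe, 29607403, used no measured value. The 2714 probes at lower coordinates (proximal) were at -0.05 in rat 1 and -0.11 in rat 2. The 2959 probes at higher coordinates (distal) were at -0.20 and -0.17. Distal probes were lower in both rats, with differences of -0.15 and -0.07 and a mean of -0.11 (SE 0.03). This difference did not pass limma over the 21 chromosomes (adjusted p 0.0866), where 38.1% of the chromosomes were called lower and 9.52% higher on the distal side. Nor did it pass with normexp, where it shrank to -0.031 (adjusted p 0.316), with the trend on input brightness removed (-0.083, adjusted p 0.0733), with probes well above background alone (-0.11, adjusted p 0.0678) or with a split at the median probe (-0.11, adjusted p 0.0640). It passed with the Agilent log ratio (-0.11, adjusted p 0.00126), with intensities before dye normalization (-0.13, adjusted p 7.60e-05), with outlier spots kept (-0.11, adjusted p 0.0203) and with means of 1 Mb fragments in place of probes (-0.11, adjusted p 0.000848). In windows of 10 Mb, rat 1 went from 0.22 in the first window through -0.28, -0.09, -0.18 and -0.22 to -0.22 in the last. Rat 2 went from 0.09 through -0.28, -0.12, -0.17 and -0.24 to -0.13. The first window was thus the only one above 0 in either rat, and the second the lowest in both.

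The first 3 Mb (351 probes) were at 0.04 in rat 1 and -0.15 in rat 2, and the last 3 Mb (393 probes) at -0.06 and -0.02. The rats differed in sign over the first 3 Mb, which joined a fragment called below 0 (0 to 1 Mb, mean -0.34, adjusted p 0.00554 in limma) and one called above 0 (2 to 3 Mb, mean 0.33, adjusted p 0.00743). In the last 3 Mb the fragment of 59 to 60 Mb was called above 0 (mean 0.49, adjusted p 6.83e-05 in limma).

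The profile of chromosome 19 repeated between the rats at large scales more than at small ones. Pearson's r between the rats was 0.32 over its 5673 probes, 0.58 over 293 fragments of 200 kb, 0.78 over 60 fragments of 1 Mb and 0.83 over 30 fragments of 2 Mb. Over all chromosomes it was 0.34, 0.58, 0.80 and 0.86 at the same sizes, so chromosome 19 was close to the genome in this respect. Spearman's rho at 1 Mb was lower on chromosome 19 (0.60) than over all fragments (0.78). When the level of one rat was set against that of the other rat at a distance, r on chromosome 19 was 0.56 at 1 Mb, 0.31 at 2 Mb, 0.14 at 5 Mb and -0.20 at 10 Mb. All these coefficients share the same 2 arrays and probes and are descriptions.

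Brightness of the input channel moved with the level. Over the 60 fragments, the level and the input log2 intensity of the same rat had r = -0.73 in rat 1 and -0.75 in rat 2, against -0.63 and -0.57 over all fragments. Spearman's rho was -0.43 in rat 1 and -0.59 in rat 2, against -0.66 and -0.62 over all fragments. By rank the relation was thus weaker on chromosome 19 than in the genome, and by Pearson's r it was stronger. The input of one rat and the level of the other, which share probes but no measured signal, had r = -0.74 both ways. In the 9 fragments called above 0, the input log2 intensity relative to the mean of the array was -0.81 in rat 1 and -0.89 in rat 2, and that of the IP channel was -0.35 and -0.47. In the 21 called below 0, the input was at 0.31 and 0.34 and the IP channel at 0.01 and 0.10. The long region had input at 0.26 and 0.29 and IP at 0.04 and 0.18. On average, rich fragments were therefore dim in both channels, and more so in the input. Depleted fragments differed from the mean of the array chiefly by a bright input. Not every rich fragment was dim in the IP channel. In rat 1 it was at 0.01 for 2 to 3 Mb, 0.06 for 7 to 8 Mb and 0.04 for 8 to 9 Mb. In rat 2 these were at -0.06, -0.06 and -0.23. Rich calls also had fewer probes, with a median of 51 against 98 for depleted calls. With the trend of the level on input brightness removed within each array, 15 fragments (25%) were still called below 0 and 4 (6.67%) above, against 12.1% and 11.4% of all fragments, and the probes of the long region were at -0.20. The longest depleted run then measured 22.1 Mb. The part of base composition and of hybridisation efficiency in these levels was not tested.

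**Figure D4:**
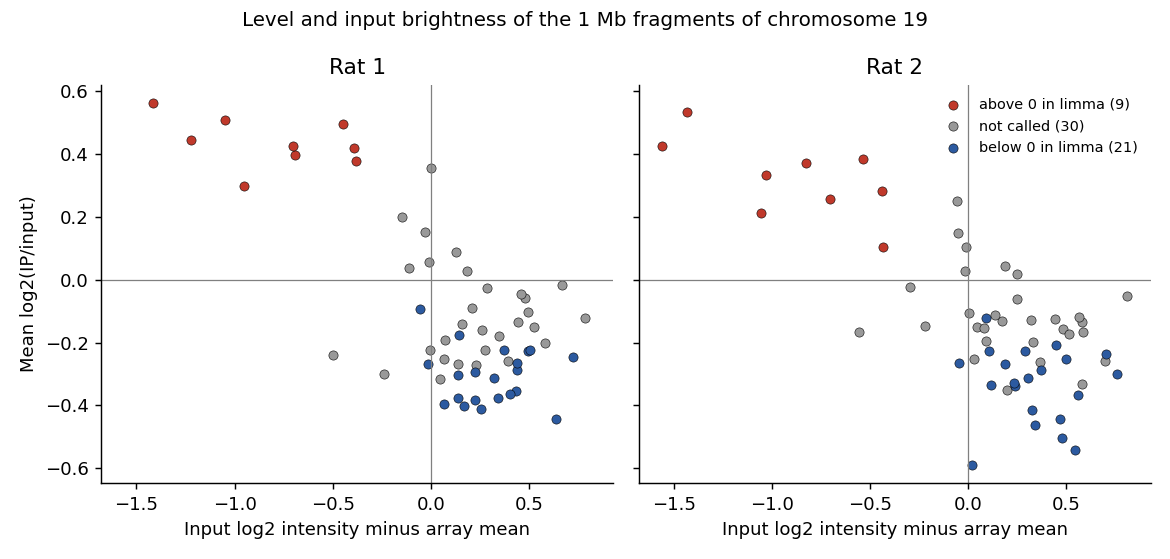
Level of the 60 fragments of 1 Mb of chromosome 19 (vertical axis, log2) against the input log2 intensity relative to the mean of the array (horizontal axis), in rat 1 and rat 2. Colours mark the 9 fragments called above 0, the 21 below 0 and the 30 not called, and the 9 rich fragments all lie at negative input intensity.

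The number of called fragments changed with the processing. With medians over probes in place of means, 6 fragments (10%) were called below 0 on chromosome 19, against 8.28% of all fragments, so that most of the excess of depleted calls was lost. With probes well above background alone there were 13 (21.7%), against 15.6%. With normexp, 1 fragment was called below 0 (1.67%, against 3.63% of all) and 0 above. At an unadjusted p under 0.05, limma after normexp gave 20 below and 0 above. The rich share of chromosome 19 was smaller than that of the genome in the 12 settings plotted, except that under normexp the count of 0 cannot be told from the 0.256% of all fragments, and the depleted share was larger in each but normexp.

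**Figure D5:**
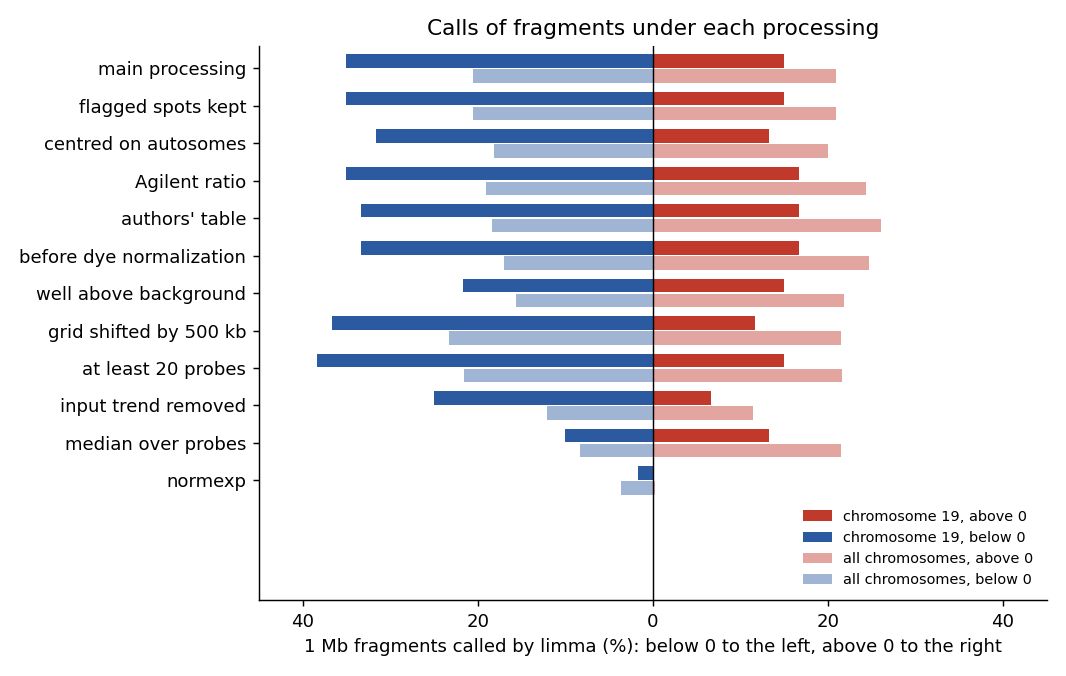
Percentage of 1 Mb fragments called by limma below 0 (left of the centre line) and above 0 (right), under each of 12 processings, for chromosome 19 (dark bars) and all chromosomes (light bars). Except under normexp, where few fragments were called, the dark bars are shorter than the light ones on the right and longer on the left.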

How the data were processed

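8-oxoG was profiled in the kidneys of 2 rats on 2-colour Agilent Rat Genome CGH arrays. Per the labels the authors used Agilent Feature Extraction 10.5.1.1. They deposited processed intensity values of both channels, from which background and spatial trends had been removed and whose dyes had been matched by lowess, on rn4. The deposited scanner files also hold intensity before dye normalization, the log10 ratio of IP over input with substituted values for dim spots, and flags per spot. The log2 table deposited by the authors equals log2 of the processed ratio without centring. No aligner or sequencing step is involved.

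The level was computed as log2 of processed IP over input intensity, minus the median over its array, with no further loess or quantile step. Control spots and 305 outlier spots were dropped, saturated ones were retained, and repeated spots were averaged by probe. Means over 1 Mb fragments (2731), 200 kb fragments, chromosomes and their differences were tested against 0 with lmFit and eBayes of limma 3.58.1 (R 4.3.3, two-sided, Benjamini-Hochberg adjusted p under 0.05 over all fragments or chromosomes). Both arrays are labelled as biological replicates, and every p rests on the spread between these 2 rats, which limma pooled over all 1 Mb fragments and over all chromosome means, so that such a p does not measure the spread of that fragment or chromosome alone. The pooling treats fragments and chromosomes as independent, although all of them share the same 2 arrays, so these p can be too small. Smoothing averaged all probes within 500 kb in both directions. The test was tested on simulated fragments. These were drawn independently of one another and without the shift between the arrays, so they do not show how it performs on these data. The remaining steps ran in Python 3.11.15 (pandas 2.3.3, numpy 2.4.6, statsmodels 0.14.6), and matplotlib 3.10.9 drew the figures.

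The chromosome, the lists and the tests were chosen with earlier results of these data known. Named are all regions of 1 Mb or longer, the 3 highest and 3 lowest fragments of 50 probes or more with equal sign in both rats, the first and last 3 Mb, and fragments at the ends of the long region. Other values are named with their reason. The comparisons with the other chromosomes, together and in 210 pairs, were added after the data were seen. Alternatives covered the ratio (normexp with an offset of 50 on median signals, the Agilent ratio, the table of the authors, signals before dye normalization), centring, filters on spots, input trend, summary, grid, window and each rat alone. The files name no genes, and no genome or annotation of rn4 was used here, so planned results on genic probes and single genes were not run and no sequence is shown.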

Additional observations from a re-analysis of the deposited data

How the results depend on the processing

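With normexp the mean of chromosome 19 was -0.071 (adjusted p 0.155), the long region was at -0.090, 0 fragments were called above 0 and 1 below, and r between the rats was 0.54. The level then changed sign for the rich region chr19:27437612-29623482 (-0.046) and the fragment of 5 to 6 Mb (-0.0028). Before dye normalization the mean was -0.12 (adjusted p 0.0754), r was 0.85 and the distal minus proximal difference was -0.13 (adjusted p 7.60e-05). With the Agilent log ratio this difference was -0.11 (adjusted p 0.00126) and the longest depleted run 12.4 Mb. With the table of the authors the long region was at -0.18 and the longest run was 12.4 Mb. Centring on autosomal probes gave a mean of -0.13 (adjusted p 0.195), and keeping outlier spots a distal minus proximal difference of -0.11 (adjusted p 0.0203). With probes well above background alone the long region was at -0.19, 13 fragments were called below 0 and the longest run was 10.46 Mb. With the input trend removed, 4 fragments were called above 0 and r was 0.71. Medians over probes gave 6 fragments below 0, and a limit of 0.25 on both arrays gave 10. Over 500 kb fragments r was 0.71, means of 1 Mb fragments gave a distal minus proximal difference of -0.11 (adjusted p 0.000848), and smoothing over 250 kb gave a run of 9.98 Mb at -0.26. The depleted region chr19:23004372-24322190, of 44 probes, turned to 0.0085 with the Agilent ratio, 0.020 with the table of the authors, 0.013 with probes above background and 0.028 with the input trend removed. Levels of regions are over the boundaries of the main profile, except with another smoothing window. The cause of these changes was not tested.

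With each rat alone, the mean ran from -0.14 to -0.13, the long region from -0.24 to -0.20, the distal minus proximal difference from -0.15 to -0.07, the longest run from 14.0 to 21.8 Mb, and the region of 44 probes from -0.13 to 0.091. Fragments beyond 0.25 on a single array numbered 8 to 10 above 0 and 21 to 21 below. These are values without a test, since 1 array leaves no residual degree of freedom. Of 120 alternative values for the 15 named levels, 71 moved by less than the spread between the rats, 43 moved by more with the same sign and 6 changed sign. No paired analysis was possible because the arrays form a single group. Dim probes limit the profile, since 79.0% of the probes were well above background throughout.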

Other observations

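A further 69 probes lie on sequence assigned to chromosome 19 without a position, and for 78.3% of them all signals were well above background. Their mean level was -0.02 in rat 1 and -0.05 in rat 2, between the long depleted region and the rich block near the start of the chromosome. Of the 9 intervals of more than 100 kb between neighbouring probes, 4 lie inside the long depleted region, the longest of them with 500 kb between 51319985 and 51819445.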
